A study of Mus musculus with 9 samples.

Results

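The clustered protocadherins are a family of cell-surface adhesion proteins whose genes stand in 3 neighbouring arrays, named alpha, beta and gamma. The genes described here were chosen by symbol, as every row of the deposited tables whose name begins with Pcdha, Pcdhb, Pcdhga, Pcdhgb or Pcdhgc and goes on to a number. That gave 54 of 13089 genes, of which 14 were of the alpha cluster (12 alpha and 2 C-type genes), 18 of the beta cluster and 22 of the gamma cluster (12 of subclass A, 7 of subclass B and 3 of C type). RefSeq names 58 genes that fit the same pattern. Pcdhb1, Pcdhb2, Pcdhb5 and Pcdhb21 are not analysed here. The family was singled out with its values in the third C57BL/6J library already known, so the contrast of that library with the others is described below without a test.

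Whole eyes of 3 inbred, wild-type strains of mouse were sequenced as poly(A) RNA. The strains were the albino A/J, the albino BALB/c and the pigmented C57BL/6J, which by the stated design lose their retina at different rates. There were 3 libraries for each of them, with RNA of 5 female mice aged 4 weeks pooled in every library, so single animals are not seen. A library is called here by its strain and number, as in C57BL/6J 3. The labels name no treatment. The labels do not say whether libraries of a strain came from separate pools, so the p-values reflect only how libraries scatter, and that scatter may be technical.

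A clustered protocadherin is a single-pass membrane protein with cadherin repeats outside the cell. Each neuron expresses its own mix of members, cells that carry the same mix recognise each other, and sister branches of 1 neuron thereby avoid one another. In the retina the gamma cluster is known for this self-avoidance in starburst amacrine cells and for the survival of interneurons. The alpha and gamma arrays share a layout. Each variable exon has its own promoter and encodes the outer part, the membrane span and a short tail, and it is spliced to 3 constant exons that encode the inner end common to all members of that array. Beta genes are single exons with no constant part. The C-type members lie at the ends of the alpha and gamma arrays and are expressed more evenly from neuron to neuron than the others.

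The annotation used here showed that layout in numbers. All 13 alpha genes with a transcript model had 4 exons and 2860 bases shared with other alpha genes, which was 48.6% to 54.9% of a transcript of 5206 to 5888 bases. The 21 gamma genes with a usable model had 4 exons and shared 2116 to 2119 bases, or 41.7% to 45.5% of a transcript of 4661 to 5080 bases. The 18 beta genes had 1 exon and 0 shared bases. Pcdha10 had no model, and Pcdhgb8 was left out of these figures because its model is that of a pseudogene. Reads from a constant exon cannot be traced to 1 member, and how the deposited values divided such reads is not given in the sources used here. Values of alpha and gamma members are therefore uncertain as measures of single genes. GC content also differed by cluster, with 46.5% to 49.8% in alpha, 39.1% to 49.0% in beta and 51.0% to 55.4% in gamma, against a median of 50.6% over 12859 genes.

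A lens marker fitted the labelled tissue, as Cryaa, a lens crystallin, ranged from 18391 to 53089 RPKM over the 9 libraries. RPKM is a read number divided by transcript length and by library size, so it can be compared between genes. The depth of the libraries is unknown, and no counting interval can be given. C57BL/6J 3 stood apart from the other 8 libraries beyond the members too. Value times transcript length summed over all genes to 96.7% to 99.4% of the total that RPKM implies in those 8 libraries and to 114% in C57BL/6J 3. Its lens marker sum was 96885 RPKM against 136475 to 203221, and its sum over 10 oligodendrocyte and myelin markers was 42.0 RPKM against 155 to 1110, with Olig2 of that list at 0 in at least 1 library. Of all genes, 7.6% were at least 2-fold higher in it than in C57BL/6J 1 and 2 (scaled values + 0.5) and 2.0% at least 2-fold lower. The counts of members called against C57BL/6J and their median changes are therefore given with and without C57BL/6J 3. Every C57BL/6J mean ± SD below includes that library.

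Outside C57BL/6J 3 the family was low. The 14 alpha members summed to 7.67 to 13.98 RPKM in the 8 other libraries with medians of 0.425 to 0.72 RPKM. The 18 beta members summed to 28.6 to 42.0 RPKM with medians of 1.31 to 1.855 RPKM, and the 22 gamma members to 25.9 to 54.3 RPKM with medians of 0.64 to 1.63 RPKM. A typical alpha member was thus lower than a typical beta or gamma member in each of these libraries. In all 3 strains alike, 1 C-type gene stood above the rest of its array in alpha and in gamma, whereas the beta array had no such single leader.

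In the alpha cluster the leader was Pcdhac2, a C-type gene. Its level was 2.82, 2.79 and 4.64 RPKM for A/J 1, 2 and 3, 3.68, 4.46 and 4.38 RPKM in BALB/c, and 4.28, 5.12 and 6.93 RPKM in C57BL/6J. It was the highest alpha member in 9 of 9 libraries and held 33.2% to 40.0% of the alpha sum in the 8 libraries other than C57BL/6J 3. The other C-type gene of the array, Pcdhac1, lay with the ordinary members, at 0.84, 0.42 and 0.69 RPKM in A/J, 0.82, 0.78 and 0.56 RPKM in BALB/c, and 0.77, 0.66 and 4.65 RPKM in C57BL/6J.

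The next alpha genes by mean were Pcdha4 and Pcdha12, both ordinary variable members. Pcdha4 had 0.81, 0.66 and 1.2 RPKM in A/J, 1.05, 1.2 and 1.41 RPKM in BALB/c, and 1.09, 1.37 and 4.95 RPKM in C57BL/6J. Pcdha12 had 0.53, 0.78 and 1.18 RPKM in A/J, 0.69, 0.8 and 0.69 RPKM in BALB/c, and 0.89, 0.74 and 4.78 RPKM in C57BL/6J. Both overlapped between strains once C57BL/6J 3 was set aside. At the bottom, Pcdha8 had 0.05, 0.02 and 0.08 RPKM in A/J, 0.19, 0.27 and 0.2 RPKM in BALB/c, and 0.25, 0.03 and 4.32 RPKM in C57BL/6J. Pcdha1 had 0.13, 0.05 and 0.11 RPKM in A/J, 0.17, 0.17 and 0.31 RPKM in BALB/c, and 0.22, 0.29 and 4.38 RPKM in C57BL/6J. Both genes were below every BALB/c library in every A/J library, as were 13.6% of all genes on scaled values. Pcdha6 had 0.62, 0.38 and 0.67 RPKM in A/J, 0.34, 0.46 and 0.33 RPKM in BALB/c, and 0.26, 0.42 and 4.56 RPKM in C57BL/6J.

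Beta genes were the steadiest of the family between libraries. Pcdhb9, the highest beta member by mean, had 5.44, 5.98 and 5.97 RPKM in A/J, 4.68, 3.55 and 4.12 RPKM in BALB/c, and 4.55, 4.95 and 4.78 RPKM in C57BL/6J. Pcdhb17 followed at 4.81, 5.58 and 4.53 RPKM, 3.77, 3.6 and 3.53 RPKM, and 4.46, 4.18 and 3.89 RPKM in the same order of strains. Pcdhb20 had 3.08, 4.22 and 3.51 RPKM in A/J, 2.78, 2.37 and 2.59 RPKM in BALB/c, and 3.08, 2.62 and 2.58 RPKM in C57BL/6J. All 3 genes were lower in every BALB/c library than in every A/J library, as were 15.6% of all genes on scaled values. Pcdhb4 had the lowest mean of the beta genes, with 0.9, 0.99 and 0.97 RPKM in A/J, 0.73, 0.82 and 0.81 RPKM in BALB/c, and 1.42, 1.05 and 1.24 RPKM in C57BL/6J. The highest beta member was 4.56 to 7.38 times the lowest in the 8 other libraries and 4.16 times in C57BL/6J 3.

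The gamma array was led by Pcdhgc3, a C-type gene that was the most abundant member of the whole family in 9 of 9 libraries. Its level was 7.8, 7.26 and 17.92 RPKM for A/J 1, 2 and 3, 14.72, 17.58 and 17.34 RPKM in BALB/c, and 11.82, 17.17 and 35.6 RPKM in C57BL/6J. A/J 1 and A/J 2 were the lowest of the 9, and A/J 3 lay above all BALB/c libraries. The means were 11.0 ± 6.00 RPKM in A/J, 16.5 ± 1.59 RPKM in BALB/c and 21.5 ± 12.5 RPKM in C57BL/6J (SD, n = 3).

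Pcdhgc4, the C-type gene that retinal interneurons are known to depend on for survival, had 1.42, 1.54 and 3.55 RPKM in A/J, 3.57, 4.38 and 3.67 RPKM in BALB/c, and 3.28, 4.03 and 26.12 RPKM in C57BL/6J. Every A/J library was below every BALB/c library, though A/J 3 only barely, and 13.6% of all genes had that order on scaled values. The last C-type gene, Pcdhgc5, had the lowest gamma mean, with 0.17, 0.18 and 0.46 RPKM in A/J, 0.38, 0.45 and 0.24 RPKM in BALB/c, and 0.56, 0.71 and 24.8 RPKM in C57BL/6J. Pcdhgc3 and Pcdhgc5 were the highest and the lowest gamma member in all A/J and BALB/c libraries, whereas Pcdhgb8 was the lowest in C57BL/6J 1 and 2.

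Among ordinary gamma genes, Pcdhga4 had the highest mean, with 2.57, 2.37 and 4.75 RPKM in A/J, 4.05, 4.08 and 4.54 RPKM in BALB/c, and 2.72, 2.92 and 27.26 RPKM in C57BL/6J. Pcdhgb5 had 0.32, 0.36 and 0.82 RPKM in A/J, 1.07, 1 and 0.82 RPKM in BALB/c, and 0.63, 1.05 and 26.05 RPKM in C57BL/6J. Pcdhgb8, annotated as a pseudogene, had 0.4, 0.38 and 1.01 RPKM in A/J, 0.44, 0.73 and 0.65 RPKM in BALB/c, and 0.25, 0.38 and 25.3 RPKM in C57BL/6J. What set these genes apart in 8 libraries was hardly visible in C57BL/6J 3, where they lay between 25.3 and 27.26 RPKM. The plot of members by library shows the same loss of spread for both spliced arrays.

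**Figure D1:**
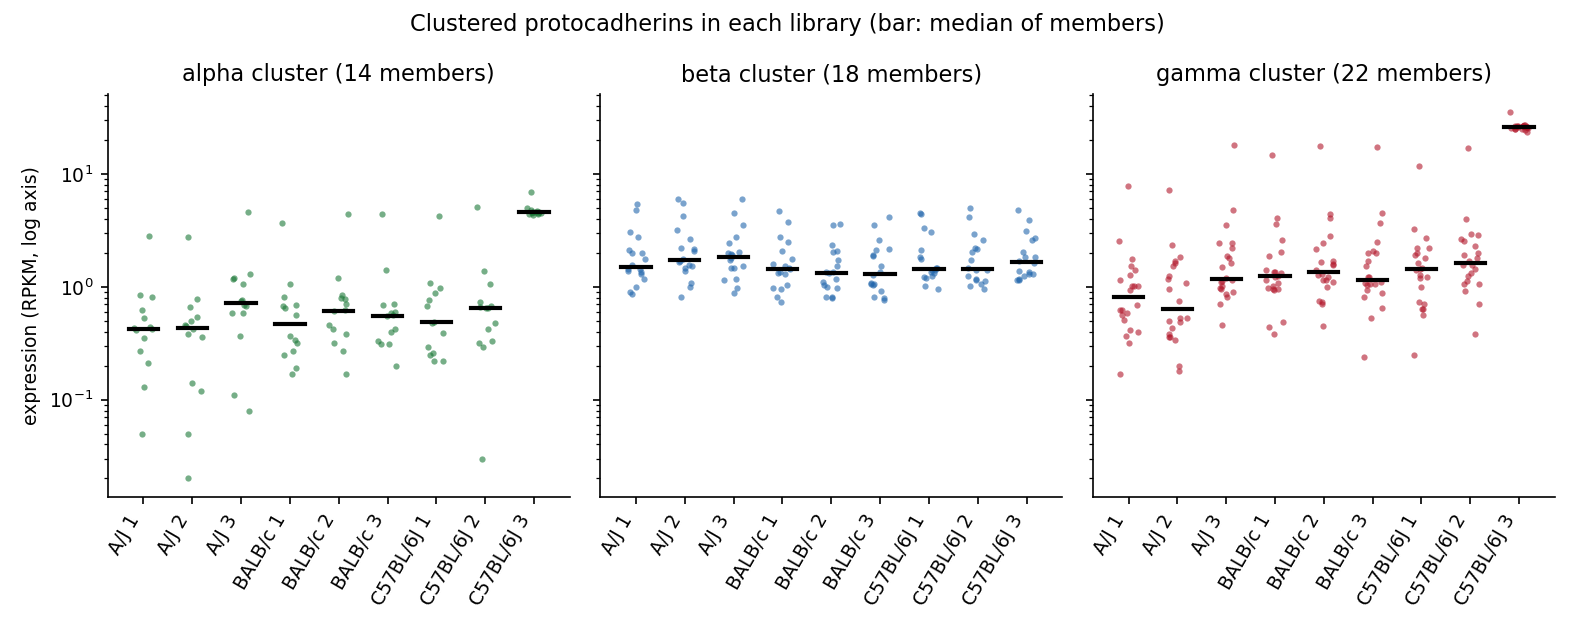
Expression of each member (RPKM, log axis) in each of the 9 libraries, 1 panel per cluster, with 1 point per gene and a bar at the median of the members. In C57BL/6J 3 the alpha points gather near a median of 4.58 RPKM and the gamma points near 26.2 RPKM, while the beta points keep the level and spread of the other libraries.

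In C57BL/6J 3 the alpha and gamma clusters were far above the 8 other libraries, and the beta cluster was not. The gamma sum was 582 RPKM against 25.9 to 54.3 RPKM in the others, and the alpha sum was 66.4 RPKM against 7.67 to 13.98 RPKM. The beta sum of 36.2 RPKM lay within the range of the others. All 14 alpha and all 22 gamma members had their highest value of the 9 libraries there, and 2 of 18 beta members did, where 41.4% of all genes did. At least 2-fold above the mean of C57BL/6J 1 and 2 (scaled + 0.5) were 13 of 14 alpha, 0 of 18 beta and 22 of 22 gamma members, where 7.6% of all genes were. At least 4-fold above it were 8 alpha, 0 beta and 21 gamma members, where 1.05% of all genes were. These counts describe the library for which the family was singled out, and nothing is read from them.

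The rise was closer to 1 fixed amount per array than to 1 fixed fold. Values here are as deposited, without division by the size factor, which was 1.158 for C57BL/6J 3. As a plain ratio of RPKM to the mean of C57BL/6J 1 and 2, alpha members rose 1.47-fold to 30.9-fold (median 8.91) and gamma members 2.46-fold to 80.3-fold (median 16.0), while beta members were at 0.793-fold to 1.35-fold (median 1.01). As a difference, gamma members gained 21.1 to 25.4 RPKM each, and beta members changed by -0.445 to 0.69 RPKM. Alpha members gained 2.23 (Pcdhac2) to 4.22 RPKM each. The largest folds therefore belonged to the lowest genes. Pcdhgb8 rose 80.3-fold and Pcdhgc3, the most abundant, 2.46-fold. In the alpha array Pcdha8 rose 30.9-fold and Pcdhac2 1.47-fold. By the ratio of deposited values + 0.5, the highest beta members were Pcdhb22, Pcdhb8 and Pcdhb6. Pcdhb22 had 2.11, 2.15 and 2.45 RPKM in A/J, 2.09, 2.02 and 2.17 RPKM in BALB/c, and 1.84, 2.2 and 2.71 RPKM in C57BL/6J. Pcdhb8 had 1.56, 1.39 and 1.91 RPKM in A/J, 1.6, 1.52 and 1.86 RPKM in BALB/c, and 1.47, 1.25 and 1.84 RPKM in C57BL/6J.

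With that gain the spread within each spliced array nearly vanished. In C57BL/6J 3 the highest alpha member was 1.6 times the lowest, against 19.5 to 171 times in the 8 other libraries. The highest gamma member was 1.5 times the lowest, against 38.7 to 72.3 times. The order of gamma members within the array was less like that of the sister libraries. Across the 22 gamma genes, which are not independent and share constant exons, the Spearman rank correlation was 0.94 between C57BL/6J 1 and 2 and 0.58 and 0.62 between each of these and C57BL/6J 3. For the 18 beta genes the same values were 0.84, 0.87 and 0.84, and for the 14 alpha genes 0.67, 0.75 and 0.91.

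**Figure D2:**
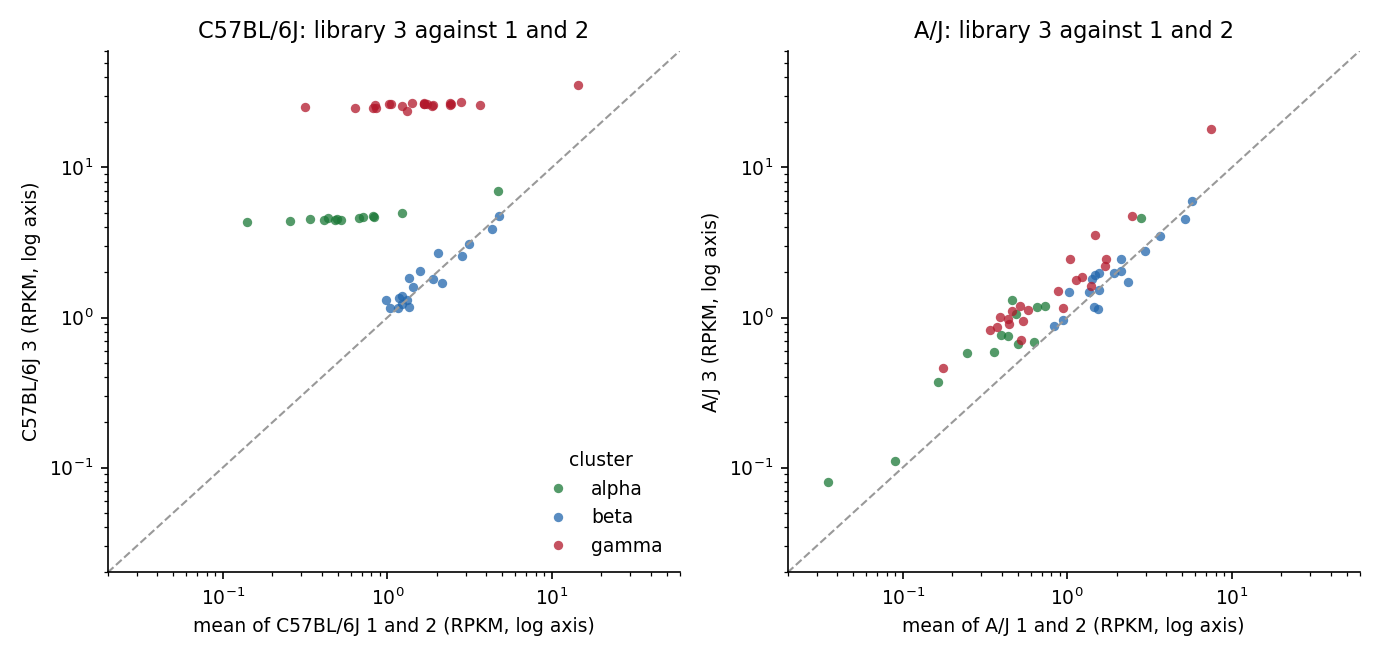
Value of each member in the third library of a strain against the mean of the first and second libraries (RPKM, log axes), with C57BL/6J on the left, A/J on the right, 1 point per gene and a dashed line at equality. In C57BL/6J the gamma and alpha points form level bands, between 23.8 and 35.6 RPKM and between 4.32 and 6.93 RPKM, and beta points follow the line, whereas in A/J the alpha and gamma points follow the line and lie mostly above it.

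The gain was measured against the part of each transcript that is shared. The value of C57BL/6J 3 was taken minus the mean of C57BL/6J 1 and 2 times the share of the transcript that is the gene's own. For 13 alpha genes the remainder was 4.22 to 4.51 RPKM, with a coefficient of variation of 1.93% where that of the plain difference was 13.2%. Much of that gap came from Pcdhac2, and without it the same 2 values were 1.52% and 3.63% over 12 genes. For 21 gamma genes it was 23.0 to 27.7 RPKM, with a coefficient of variation of 3.72% where that of the plain difference was 4.52%. Multiplied by transcript length, it came to 22.3 to 26.6 reads, on the library-size scale of RPKM, for each alpha gene (median 23.0) and 116 to 130 for each gamma gene (median 120). Values are per gene, so own-exon parts were taken as the value in C57BL/6J 1 and 2 times own length. Like the remainder, this assumes reads spread evenly along a transcript, which was not tested. Summed over the array, these parts were 31.2 for alpha and 125 for gamma in the same unit. Whether reads on constant exons were divided differently in C57BL/6J 3 was not tested. The remainders come from the library for which the family was singled out, and nothing is read from their nearness to these sums.

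Other genes that share exons were looked at in the same library. Of 12712 other genes with 0 exon bases shared with another gene of the tables, 7.35% were at least 2-fold up in C57BL/6J 3. Of 29 other genes with at least 20% of their transcript shared, 6 were (20.7%), and their median log2 value was 0.19. Of the 12 among them with over 50% shared, 4 were (33.3%), with a median of 0.27. Some of the 29 genes are built like the protocadherins. Ugt1a6b and Ugt1a7c, UDP-glucuronosyltransferases with a variable first exon and common later exons, went from 0.08 and 0 RPKM to 3.17 RPKM and from 0.39 and 0.55 RPKM to 2.32 RPKM. Ugt1a6a of the same locus, which was higher to begin with, went from 2.24 and 1.4 RPKM to 2.76 RPKM. The 3 Ugt1a genes were picked with their values in view. The genes with 100% of their transcript shared went both ways. Rsc1a1 and 4632433K11Rik had log2 values of 3.77 and 1.93, and Gdf1, Exosc6 and Yy2 had -0.17, -0.47 and -0.55. The number of transcripts per gene also went with the value in this library. Of other genes with 1 RefSeq mRNA transcript, 1.43% were at least 2-fold up, against 10.4% of those with 2 or 3 and 22.4% of those with 4 or more.

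**Figure D3:**
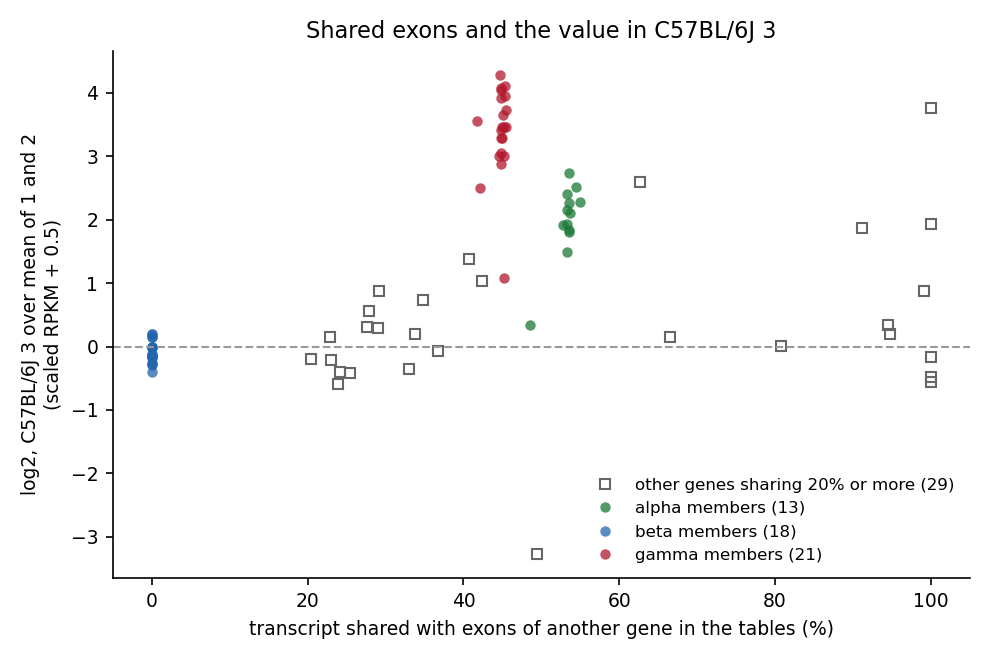
Log2 ratio of C57BL/6J 3 to the mean of C57BL/6J 1 and 2 (scaled RPKM + 0.5) against the share of a gene's transcript (%) that overlaps exons of another gene in the tables, for alpha, beta and gamma members (points) and for the 29 other genes with at least 20% shared (open squares). Beta members sit at 0% between -0.40 and 0.20, and the gamma members at 41.7% to 45.5% lie above the alpha members at 48.6% to 54.9% for the most part.

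Neuron markers in C57BL/6J 3 lay inside or close to the range of the other libraries. Over 16 marker lists the median log2 ratio of that library to C57BL/6J 1 and 2 ran from -2.71 (oligodendrocyte and myelin) to 0.49 (cornea and conjunctiva). The 10 amacrine and horizontal cell markers summed to 453 RPKM against 355 to 456 in the other libraries, the 14 ganglion cell markers to 422 RPKM against 297 to 424, and the 13 general neuron markers to 586 RPKM against 460 to 752. Of the markers of those 3 neuron lists, 0 were listed at 0 in any library. The part of the lens and myelin differences in the alpha and gamma values was not tested. In whole eyes fewer cells of a type and less RNA per cell cannot be told apart.

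A/J 3 also differed from A/J 1 and A/J 2, in another manner. On scaled values it was above both of them for 12 of 14 alpha and 21 of 22 gamma members, where 44.1% of all genes were, and for 5 of 18 beta members, with 6 beta members below both, where 46.9% of all genes were. The median log2 value of A/J 3 over the mean of A/J 1 and 2 was 0.42 for alpha, 0.00 for beta and 0.55 for gamma, against -0.03 over all genes. The spread of gamma members within the array was close to that of the sister libraries. The highest gamma member of A/J 3 was 39.0 times the lowest, near the 45.9 and 40.3 times of A/J 1 and A/J 2. Among other genes the value of A/J 3 went with GC content. Other genes within the GC range of the gamma members had a median of 0.14, and those within the GC range of the beta members had a median of -0.41. Members lay above these medians, at 0.55 for gamma and 0.00 for beta. Alpha members, at 46.5% to 49.8% GC and mostly within the beta range, were at 0.42. The part of GC content in the result was not tested.

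Strains were compared with limma on log2(scaled RPKM + 0.5), for genes with at least 1 RPKM in no fewer than 3 libraries, and an adjusted p under 0.05 counted as a call. With all 9 libraries 41 of 54 members passed this filter, 3 of them alpha, 18 beta and 20 gamma, and without C57BL/6J 3 35 passed, 2 of them alpha, 16 beta and 17 gamma. Several passed only through C57BL/6J 3. In both albino strains and in C57BL/6J 1 and 2 alike, 12 alpha and 3 gamma members had a mean under 1 RPKM, as did 0.695% of all genes. No gene of the tables had all its strain means under 0.997 RPKM, so those 15 members reach the level of the listed genes only in a C57BL/6J mean that includes C57BL/6J 3. Values over all 54 members below come from the same fit without the filter and without C57BL/6J 3.

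Few members were called. With all 9 libraries 1 member was lower in A/J than in C57BL/6J and 0 were higher, where 2.69% of all genes were called and 1.62% were called as lower. In BALB/c against C57BL/6J it was again 1 lower and 0 higher, where the shares of all genes were 3.09% and 1.15%. Both calls were Pcdhb6, a beta member, and both comparisons share the C57BL/6J libraries. A/J against BALB/c gave 0 calls among members by limma, where 2.48% of all genes were called, and 7 of 41 at an unadjusted p under 0.05, where 20.9% of all genes were. Without C57BL/6J 3, 1 member was lower in A/J than in C57BL/6J (2.24% of all genes called, 1.33% as lower), 0 were called in BALB/c against C57BL/6J (3.08%) and 0 in A/J against BALB/c (4.72%). At an unadjusted p under 0.05 these last 2 comparisons held 5 and 15 of the 35 members tested, where 14.0% and 28.3% of all genes were under it. A/J against C57BL/6J held 14 of 41 with 9 libraries and 7 of 35 without C57BL/6J 3, where 17.5% and 12.4% of all genes were. BALB/c against C57BL/6J held 4 of 41 with 9 libraries, where 13.8% of all genes were. Given the shares over all genes, 1 call among 35 to 41 members is near the background.

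Pcdhb6 had 0.86, 0.81 and 0.88 RPKM in A/J, 0.81, 0.79 and 0.76 RPKM in BALB/c, and 1.42, 1.72 and 2.04 RPKM in C57BL/6J. Every C57BL/6J library was above every library of the 2 albino strains, which overlapped each other. The log2 change was -0.63 (SE 0.13, adjusted p = 0.0347) in A/J and -0.66 (SE 0.13, adjusted p = 0.0266) in BALB/c against C57BL/6J. The gene reached 1 RPKM only in C57BL/6J, so it entered the test through the strain in which it was high. Without C57BL/6J 3 it did not enter the filtered test, and without the filter its log2 change was then -0.58 (adjusted p = 0.0852) and -0.60 (adjusted p = 0.0593). Over 15 alternatives the adjusted p ranged from 0.0208 to 0.215 for A/J and from 0.0181 to 0.159 for BALB/c, with the call kept in 7 and in 8 of them.

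Pcdhgb6, a gamma subclass B member, was the call made without C57BL/6J 3. It had 0.58, 0.49 and 0.95 RPKM in A/J, 0.95, 1.3 and 1.07 RPKM in BALB/c, and 2.23, 2.63 and 26.32 RPKM in C57BL/6J. C57BL/6J 1 and 2 were above all 6 libraries of the other strains. Without C57BL/6J 3 the log2 change was -1.29 (SE 0.20, adjusted p = 0.0129) in A/J and -0.78 (SE 0.20, adjusted p = 0.0886) in BALB/c. With C57BL/6J 3 included it was -2.31 (SE 0.69, adjusted p = 0.151) and -1.79 (SE 0.69, adjusted p = 0.284), a larger change with a larger error. The A/J call was kept in 13 of 16 alternatives without C57BL/6J 3 (adjusted p from 0.000358 to 0.144) and lost when A/J 1, C57BL/6J 1 or C57BL/6J 2 was left out too.

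Pcdhga11, a gamma subclass A member chosen after its values were seen, showed the same pattern more sharply. It had 0.62, 0.43 and 0.71 RPKM in A/J, 0.49, 0.7 and 0.53 RPKM in BALB/c, and 2.21, 2.57 and 25.9 RPKM in C57BL/6J. The albino strains overlapped, and C57BL/6J 1 and 2 were above all 6 of their libraries. Like Pcdhb6, it reached 1 RPKM only in C57BL/6J. Without C57BL/6J 3 and without the filter the log2 change was -1.37 (SE 0.17, adjusted p = 0.00414) in A/J and -1.35 (SE 0.17, adjusted p = 0.00408) in BALB/c, where 2.52% and 3.34% of all genes were called and 1.6% and 1.37% as lower. Unfiltered and without that library, A/J against BALB/c again gave 0 calls among members by limma, where 4.68% of all genes were called. At an unadjusted p under 0.05 it held 17 of the 54 members and 28.3% of all genes. With all 9 libraries the adjusted p of Pcdhga11 against C57BL/6J was 0.135 in A/J and 0.131 in BALB/c, and over 16 alternatives to that fit it ranged from 0.0515 to 0.380 and from 0.0580 to 0.40. Values were made on the mouse reference genome, and whether sequence differences between the strains bear on the values of Pcdhb6, Pcdhgb6 and Pcdhga11 was not tested.

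**Figure D4:**
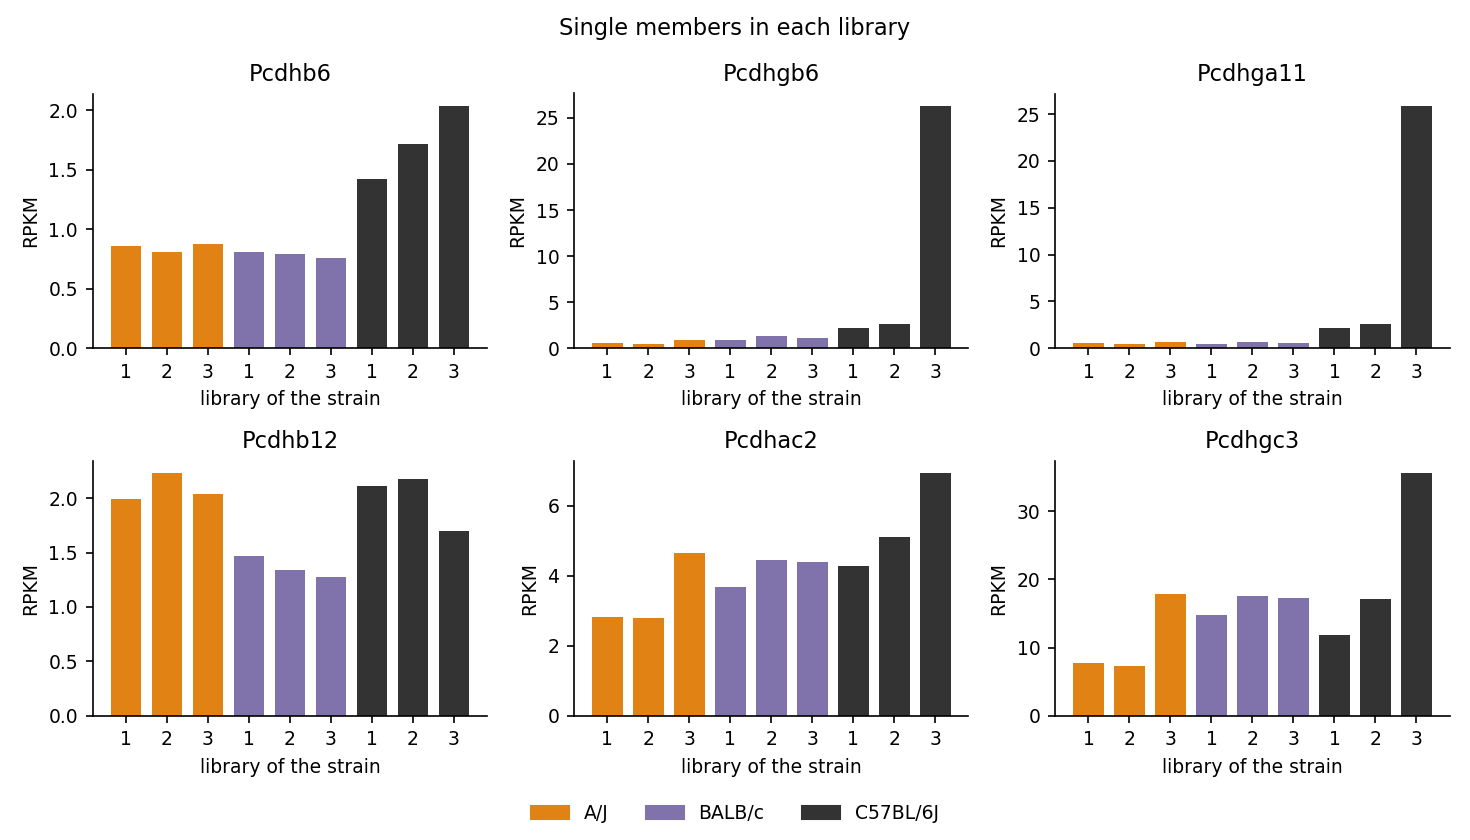
Expression (RPKM, linear axis from 0) of Pcdhb6, Pcdhgb6, Pcdhga11, Pcdhb12, Pcdhac2 and Pcdhgc3 in each library, 1 bar per library, coloured by strain. C57BL/6J 1 and 2 stand above all A/J and BALB/c bars in Pcdhb6, Pcdhgb6 and Pcdhga11, BALB/c is lowest in Pcdhb12, and C57BL/6J 3 is high in every gamma or alpha gene shown but not in Pcdhb12.

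Between the albino strains, where C57BL/6J 3 has no part, beta and gamma members lay on opposite sides by mean. The mean was higher in A/J than in BALB/c for 17 of 18 beta members, 0 of 22 gamma members and 5 of 14 alpha members on scaled values, where 50.1% of all genes were higher in A/J. All A/J libraries were above all BALB/c libraries for 10 of 18 beta members, where 15.6% of all genes were, and below them for 8 of 22 gamma members and 2 of 14 alpha members, where 13.6% of all genes were. Over all members the median log2 change, A/J minus BALB/c, was 0.24 for beta, -0.44 for gamma and -0.14 for alpha, against -0.01 over all genes. Single members ranged from -0.08 (Pcdhb8) to 0.42 (Pcdhb12) in beta and from -0.85 (Pcdhgc4) to -0.02 (Pcdhga11) in gamma. By limma 0 members passed, as given above. The gamma sums were 26.71, 25.86 and 51.35 RPKM in A/J 1, 2 and 3 and 45.12, 52.23 and 49.15 RPKM in BALB/c. The gamma sum of A/J 3 thus lay within the BALB/c range, and the lower A/J mean came from A/J 1 and A/J 2. Gamma members share constant exons, so their common direction is not a set of independent observations.

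Pcdhb12, a beta member named after its values were seen, at the end of that range, had 1.99, 2.23 and 2.04 RPKM in A/J and 1.47, 1.34 and 1.28 RPKM in BALB/c. It was at 2.11, 2.18 and 1.7 RPKM in C57BL/6J. The strains A/J and BALB/c did not overlap, and the log2 change was 0.42 (SE 0.12, adjusted p = 0.0819) without C57BL/6J 3. Pcdhgc4, at the other end, had a log2 change of -0.85 (SE 0.27, adjusted p = 0.107) with the libraries given above.

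GC content moved with the beta difference, and 1 library bore on the calls. Of other genes within the GC range of the beta members, 78.7% were higher in A/J than in BALB/c with a median log2 change of 0.25, close to that of the beta members. Of other genes within the GC range of the gamma members, 32.8% were higher, with a median of -0.11. After a correction for GC content with 9 libraries the median went from 0.24 to 0.01 over the 18 beta members and from -0.47 to -0.33 over the 20 gamma members that passed the filter. The general neuron markers summed to 673, 752 and 533 RPKM in A/J 1, 2 and 3 and to 500, 460 and 478 RPKM in BALB/c, and their part in the beta result was not tested. Without A/J 3 the fit called 5 of 39 members tested, where it called 34.6% of all genes. With C57BL/6J 3 left out as well it called 21 of 35 members tested and 60.2% of all genes, so the members did not exceed the background in the first and were near it in the second.

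Against C57BL/6J 1 and 2 the arrays gave no common direction in BALB/c. All BALB/c libraries were above both for 4 beta and 7 gamma members and below both for 6 beta, 4 gamma and 1 alpha member, where 22.4% and 23.3% of all genes were. The median log2 change was -0.06 for beta, 0.09 for gamma and 0.02 for alpha. In A/J, 9 beta and 1 gamma member were above both and 2 beta, 7 gamma and 2 alpha members below both, where 11.5% and 11.6% of all genes were. The median log2 change was 0.22 for beta, -0.37 for gamma and -0.08 for alpha. GC content moved with the beta value here too. Other genes within the GC range of the beta members had a median of 0.15, with 73.9% above 0, and a GC correction took the median of the 16 beta members that passed the filter from 0.22 to 0.12. Other genes within the GC range of the gamma members had a median of -0.05. Without A/J 3 the number of members called against C57BL/6J was 6 with C57BL/6J 3 and 12 without it, where 28.2% and 39.4% of all genes were called. With C57BL/6J 3 included and no filter, the medians were 0.21 for beta, -1.63 for gamma and -0.70 for alpha in A/J and 0.03, -1.13 and -0.66 in BALB/c. The median gamma difference from C57BL/6J thus depended on that library in size, and in BALB/c in direction too.

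**Figure D5:**
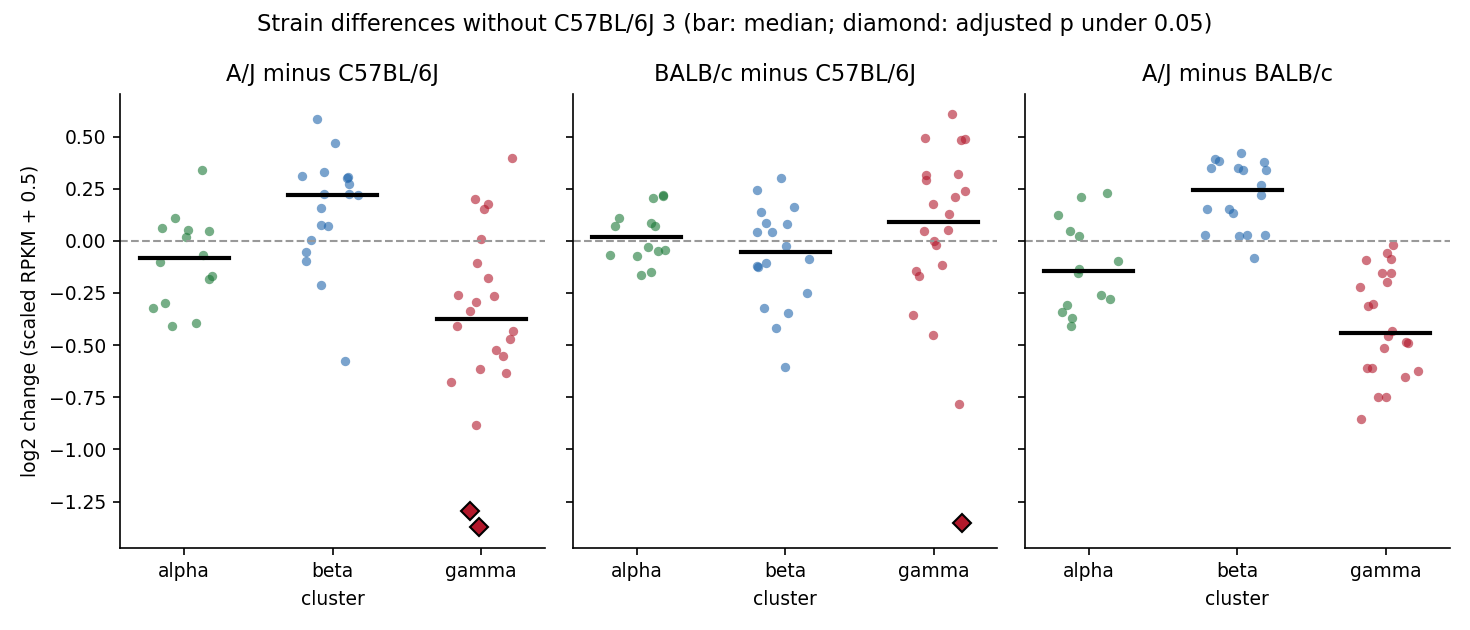
Log2 change (scaled RPKM + 0.5) of all 54 members in the 3 strain comparisons without C57BL/6J 3 and without a filter, 1 point per gene, with a bar at the median of each cluster and diamonds at an adjusted p under 0.05. Diamonds are Pcdhga11 and Pcdhgb6 in A/J and Pcdhga11 in BALB/c against C57BL/6J, and in A/J minus BALB/c all gamma points lie under 0 and all but 1 beta point above it.

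The spread within strains set how firm these comparisons can be. The median SD of a member's log2 value was 0.28, 0.15 and 0.35 in A/J for alpha, beta and gamma, and 0.14, 0.07 and 0.13 in BALB/c. In C57BL/6J it was 1.26, 0.13 and 2.01 with 3 libraries and 0.20, 0.11 and 0.17 with C57BL/6J 1 and 2. Over all genes A/J had 0.26, BALB/c 0.10 and C57BL/6J 0.25. BALB/c thus had the smallest spread in each cluster, as it had over all genes.

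Genes that act on or with the family were looked up from lists. Of 20 listed regulators of the clusters, 19 were tested and 0 were called in any of the 3 comparisons by limma, with or without C57BL/6J 3. They include Ctcf, the insulator protein that joins cluster promoters to distant enhancers, and cohesin, which holds such loops. Rad21, a cohesin subunit and the highest of the list, was at 55.0 ± 10.4 RPKM in A/J, 37.0 ± 2.67 RPKM in BALB/c and 43.9 ± 7.85 RPKM in C57BL/6J (SD, n = 3). Smc1a, the next cohesin subunit, was at 28.2 ± 7.31, 19.2 ± 0.697 and 23.8 ± 3.07 RPKM, and Stag2, also of cohesin, at 25.6 ± 7.42, 15.6 ± 2.37 and 25.5 ± 8.62 RPKM in the same order. The list also held 2 genes, named after their values were seen, that were at least 2-fold up in C57BL/6J 3, where 7.6% of all genes were. Dnmt3b, a DNA methyltransferase that methylates cluster promoters in development, was at 0.53 and 0.91 RPKM in C57BL/6J 1 and 2 and at 4.77 RPKM in C57BL/6J 3. Setdb1, a histone methyltransferase, was at 7.51 and 6.87 RPKM and at 23.4 RPKM.

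Of 25 listed partners and processing enzymes, which include the kinases bound by the constant domain, the WAVE actin complex and the gamma-secretase that cleaves protocadherins, 3 were called in some comparison. Prkca, protein kinase C alpha and also a marker of rod bipolar cells, was at 6.19 ± 0.119 RPKM in A/J, 14.6 ± 0.632 RPKM in BALB/c and 16.2 ± 0.787 RPKM in C57BL/6J, and it fell in A/J against both (log2 change -1.21, adjusted p = 0.00046, and -1.24, adjusted p = 0.000816). Psenen, a gamma-secretase subunit, was at 5.75 ± 1.34, 16.9 ± 1.23 and 4.44 ± 1.02 RPKM and was higher in BALB/c than in C57BL/6J (log2 change 2.00, adjusted p = 0.00124) and than in A/J (adjusted p = 0.00662). Without C57BL/6J 3 the limma log2 change against C57BL/6J was -1.24 for Prkca in A/J (adjusted p = 0.00117). For Psenen in BALB/c it was then 1.78 (adjusted p = 0.00171). Aph1a, another subunit, had 0.73, 0.81 and 1.72 RPKM in A/J and 3.05, 3.4 and 2.97 RPKM in BALB/c, and passed in A/J against BALB/c without C57BL/6J 3 (log2 change -1.31, adjusted p = 0.0289) but not with all 9 libraries (adjusted p = 0.277). The sheddase and adhesion genes of the list were not called. In C57BL/6J 3, 5 of the 25 genes (Ptk2b, Fyn, Abi1, Aph1a and Axin1) were at least 2-fold up, where 7.6% of all genes were. The highest others by mean were Rac1, a GTPase upstream of WAVE, at 129 ± 30.2, 106 ± 1.88 and 110 ± 17.0 RPKM in the same order of strains, Nckap1 of the WAVE complex, at 45.8 ± 5.52, 36.8 ± 1.24 and 41.9 ± 2.58 RPKM, and Cyfip2 of the same complex, at 30.6 ± 4.88, 30.5 ± 2.43 and 35.1 ± 2.36 RPKM.

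Protocadherins outside the clusters were not called either. Of 17 listed, which include the Fat and Celsr giant cadherins, 0 passed in any comparison by limma, with or without C57BL/6J 3. Pcdh21, the photoreceptor cadherin of outer segment discs, was the highest at 155 ± 5.12 RPKM in A/J, 136 ± 4.48 RPKM in BALB/c and 148 ± 2.77 RPKM in C57BL/6J, above every clustered member in 9 of 9 libraries. Pcdh1 was at 6.50 ± 2.28, 9.48 ± 1.49 and 8.77 ± 2.77 RPKM. Pcdh15, a cadherin of photoreceptors and hair cells, was at 4.06 RPKM in both C57BL/6J 1 and C57BL/6J 2 and at 47.8 RPKM in C57BL/6J 3, and 4 of the 17 genes were at least 2-fold up there, where 7.6% of all genes were. Of 21 classical cadherins and catenins, Cdh9, a type II cadherin, passed in A/J against C57BL/6J with all 9 libraries (log2 change 1.05, adjusted p = 0.0388, and adjusted p = 0.110 without C57BL/6J 3) and in A/J against BALB/c (log2 change 1.05, adjusted p = 0.0411). Cdh9 reached 1 RPKM only in A/J, so it entered the test through the strain in which it was high. Ctnnb1, beta-catenin, was the highest at 219 ± 3.5, 178 ± 10.1 and 273 ± 136 RPKM. Its C57BL/6J libraries were at 193, 196 and 430 RPKM. The log2 change of Ctnnb1 in A/J against C57BL/6J was -0.10 with all 9 libraries and 0.22 without C57BL/6J 3. Next were Ctnna1, alpha-catenin, at 77.9 ± 10.3, 58.7 ± 0.305 and 73.8 ± 6.18 RPKM and Jup, plakoglobin, at 36.0 ± 12.3, 56.8 ± 10.8 and 58.1 ± 13.7 RPKM. Of the 21 genes, 2 (Ctnna2 and Ctnnd1) were at least 2-fold up in C57BL/6J 3, where 7.6% of all genes were.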

How the data were processed

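Deposited were 9 tables, 1 for each library, of 13089 genes. Values were read as RPKM, deposited as the authors made them with CASAVA 1.7 and GenomeStudio on the mouse build mm9, as the submitters' processing notes list; the headers name no unit, and value times length sums to nearly the total RPKM implies. How reads were counted is not given in the sources used here, and depth is unknown.

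After division by median-of-ratios size factors and addition of 0.5, log2 values were compared between strains with limma 3.58.1 (R 4.3.3; trended, robust prior variance; strain as only term; two-sided; Benjamini-Hochberg adjustment over all genes tested), with 9 libraries and again without C57BL/6J 3. The filter was 1 RPKM in at least 3 libraries. Log2 changes of low genes are understated on this scale. On simulated data for A/J minus C57BL/6J over 12811 genes, 94% of changes of 2 log2 units and 56% of changes of 1 unit were recovered, with 8 false calls. The simulated scatter was independent from gene to gene and held no shift of a whole library. These shares therefore do not give the power of the real comparison. GENCODE models on another build gave only transcript length, GC content and shared exons, for 12859 genes. No coordinates or sequences are given.

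The members and lists were chosen with earlier results of these data known. Members are named if called, among the 3 highest by mean, of C type, among the 3 with the highest ratio of C57BL/6J 3 to C57BL/6J 1 and 2 (deposited values + 0.5), or the lowest of a cluster, and genes of related lists if called or among the 3 highest others. Pcdhga11, Pcdhb12, Dnmt3b, Setdb1, the Ugt1a genes and the genes with 100% of their transcript shared were added after their values were seen. Replicate numbers did not pair the libraries. Alternatives are given in the closing section.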

Additional observations from a re-analysis of the deposited data

How the results depend on the processing

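With all 9 libraries, the count of members called in A/J against C57BL/6J and in BALB/c against C57BL/6J was 1 each. It was 0 in both with a mean of at least 2 RPKM, in A/J with only the 2 strains compared, and in BALB/c with GC correction. Leaving out 1 library gave 0 to 6 members in A/J against C57BL/6J, 0 to 1 in BALB/c against C57BL/6J and 0 to 5 in A/J against BALB/c, with 6 and 5 coming without A/J 3, where 28.2% and 34.6% of all genes were called. All alternatives combined with the omission of C57BL/6J 3 were chosen after seeing the data. There, A/J against C57BL/6J gave 2 members without a filter (2.52% of all genes) and 0 with a mean of at least 2 RPKM or only 2 strains. BALB/c against C57BL/6J gave 1 without a filter (3.34% of all genes), 3 with only 2 strains and 1 with GC correction. With GC correction 366 of 12610 genes were called as lower, as was that member. The share over all genes with only 2 strains is not given here, so those 3 members have no background. Leaving out a second library gave 0 to 12 members in A/J against C57BL/6J, 0 to 4 in BALB/c against C57BL/6J and 0 to 21 in A/J against BALB/c, with 12, 4 and 21 coming without A/J 3, where 39.4% (A/J against C57BL/6J) and 60.2% (A/J against BALB/c) of all genes were called. For the 4 members in BALB/c against C57BL/6J the share over all genes is not given here, so they have no background. The calls that involve A/J therefore depend on A/J 3 over all genes, and the cause was not tested.

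The replicate numbers of the labels did not pair libraries (correlations of same-numbered libraries from -0.51 to 0.54). With the replicate block the count was 0 in both comparisons with C57BL/6J and, with block and GC correction, 0 in BALB/c against C57BL/6J. Without C57BL/6J 3, the replicate block with GC correction gave 1 member in BALB/c against C57BL/6J. The share over all genes is not given for that setting.

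The median log2 value of C57BL/6J 3 over C57BL/6J 1 and 2 was 2.14 for alpha, -0.13 for beta and 3.47 for gamma. It was 2.31, 0.0062 and 3.65 on values as deposited, 2.74 (alpha) and 3.74 (gamma) with a pseudocount of 0.1, 1.7 and 3.19 with 1, 0.058 for beta with GC correction, and 0.34 for alpha when only members with under 50% of the transcript shared were kept, which left Pcdhac2. The near-zero beta value thus changed sign with scaling. Low RPKM and the unknown depth limit the alpha members most.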
